A study of Homo sapiens with 4 samples.

Results

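The genes described here are the amino acid transporters of 7 solute carrier families, SLC1, SLC3, SLC6, SLC7, SLC36, SLC38 and SLC43. They were defined by symbol, as every row of the count tables whose symbol is one of these family names followed by A and a number, which leaves out pseudogenes and antisense genes. The rule found 59 of the 56655 symbols in the tables, and 34 of the 59 held enough counts to be tested, among 16417 tested genes in all. The libraries are poly(A) RNA-seq from OVCAR5, an established human ovarian cancer cell line grown in RPMI medium with fetal bovine serum. One group was transduced with a nontargeting control short hairpin RNA (shCtrl, n = 2 libraries) and the other with a hairpin that targets the transcription factor gene FOXK2 (shFOXK2, n = 2 libraries). Both groups were stable lines made with lentiviral particles and puromycin selection. The study's legends name shFOXK2-2 as the hairpin of the sequenced cells, so a single hairpin stands for FOXK2 loss. The submitters call the 2 libraries of a group biological duplicates without saying whether they came from separate transductions, so p-values measure the spread between these libraries only.

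Amino acids cross membranes on carrier proteins, some of which exchange one amino acid for another while others use the sodium or proton gradient. The heteromeric carriers are built from a heavy subunit of the SLC3 family, which brings the complex to the plasma membrane, and a light chain of the SLC7 family, which binds the substrate. SLC7A5 (LAT1) with SLC3A2 (CD98) imports leucine and other large neutral amino acids, and SLC7A11 (xCT) with SLC3A2 imports cystine for glutathione synthesis. In the response to amino acid shortage the kinase EIF2AK4 (GCN2) favours translation of ATF4, a transcription factor that binds response elements near genes such as SLC7A11, SLC7A5 and SLC3A2. SLC7A11 is also known as a target of NRF2, the oxidative stress factor that binds antioxidant response elements.

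The region upstream of an annotated start is shown for these carriers because motif letters for ATF4, NRF2 and FOXK2 can be read in it. Entries of RefSeq (GRCh38.p14) were found for SLC7A5 and SLC3A2, and the promoter table used here was without SLC7A11. SLC7A1 was added as a called transporter at the top in level per transcript length averaged over both groups, where SLC43A3 was about level with it. Each line gives the 250 bases that precede an annotated start, on the strand of the gene, in lower case, with capitals for a match to the motifs named after the lines.
SLC7A5, chr16:87869508-87869757, minus strand: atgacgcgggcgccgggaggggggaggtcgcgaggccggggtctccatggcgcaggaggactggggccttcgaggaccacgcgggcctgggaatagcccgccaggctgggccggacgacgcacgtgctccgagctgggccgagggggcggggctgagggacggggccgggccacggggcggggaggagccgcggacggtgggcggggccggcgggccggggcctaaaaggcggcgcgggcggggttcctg
SLC3A2, chr11:62881449-62881698, plus strand: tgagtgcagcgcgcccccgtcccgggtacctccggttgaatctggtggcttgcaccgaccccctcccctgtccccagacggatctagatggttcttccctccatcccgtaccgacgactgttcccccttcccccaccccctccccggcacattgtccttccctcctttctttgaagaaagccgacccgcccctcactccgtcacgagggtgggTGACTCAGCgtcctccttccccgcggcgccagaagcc
SLC7A1, chr13:29595689-29595938, minus strand: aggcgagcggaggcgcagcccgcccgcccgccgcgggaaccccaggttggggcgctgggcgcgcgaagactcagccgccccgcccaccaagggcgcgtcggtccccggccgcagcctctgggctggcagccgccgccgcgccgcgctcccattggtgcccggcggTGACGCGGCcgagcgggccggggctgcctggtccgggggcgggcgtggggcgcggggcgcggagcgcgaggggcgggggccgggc

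Both strands were searched for the ATF4 element TGATGNAA, the antioxidant response element TGACNNNGC and the FOXK2 motif TGTTTAC, where N is any base and where none of the matches shown overlaps another. The start of SLC3A2 shown held the antioxidant letters at 37 to 29 bases before the start, and the start of SLC7A1 at 85 to 77 bases, while no capitals appear for SLC7A5. The SLC3A2 start shown lies inside the annotated gene. The windows of its other annotated starts, among them the one nearest the gene start, held none of the letters searched for. Of 44 members with an entry, 6 held the antioxidant letters at a start (SLC1A3, SLC1A5, SLC3A2, SLC7A1, SLC7A6 and SLC7A7), against 13.2% of 27305 genes. The ATF4 letters were found for 2 members (SLC1A3 and SLC1A5), against 3.89% of genes. The FOXK2 letters were also found for 2 members (SLC1A5 and SLC43A1), against 3.66% of genes. SLC1A5 was therefore a member that held all of these letters, and SLC1A5 did not pass the test between groups. A match is a description of letters in this window and says nothing of binding.

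Library totals ran from 14284005 to 21950873 counts, so that 3 counts, taken as the floor, equal 0.134 to 0.211 CPM, the unit of counts scaled to a common library total. CPM here, the floor included, are scaled with the TMM factors, which correct the totals for composition, and the floor covers counting error alone. The correlation of log2 CPM between libraries was 0.985 within shCtrl, 0.981 within shFOXK2 and 0.857 to 0.879 between groups. FOXK2 itself was counted 1796 and 1499 times in the shCtrl libraries and 1086 and 1084 times in the shFOXK2 libraries. After scaling this was 80.5 and 93.4 CPM in shCtrl against 76.3 and 59.6 CPM in shFOXK2. The log2 fold change was −0.36 (SE 0.25, edgeR adjusted p = 0.257), so the targeted transcript did not pass the test. By PCR and Western blot the study reported less FOXK2 mRNA and protein in OVCAR5 cells with its FOXK2 hairpins. Epithelial markers (5 genes) summed to 3593 and 4785 CPM in shCtrl and 3436 and 4645 in shFOXK2, while CDH1 among them went from 20.6 and 16.2 to 0.914 and 1.32 CPM. Of the ovarian markers, PAX8 was present at 8.90 to 20.9 CPM, MUC16 went from 17.8 and 9.03 to 0 and 0.439 CPM, and WT1 held 2 counts or fewer in every library, in cells labelled as high grade serous. Gastrointestinal markers (3 genes) summed to 8.19 to 14.3 CPM, mostly from CDX2 at 6.87 to 13.3 CPM, with CDH17 at 0.717 to 0.984 and VIL1 at 0.187 to 0.385. Endothelial markers (3 genes) summed to 10.6 and 7.72 CPM in shCtrl and to 0.633 and 1.98 in shFOXK2, fibroblast markers (5 genes) to 20.4 and 18.9 and to 16.4 and 13.5, and leukocyte markers (4 genes) to 0.422 CPM or less. Among the fibroblast markers COL1A1 was at 12.6 to 15.9 CPM in every library, PDGFRB went from 5.69 and 5.42 to 0.141 and 0.439 CPM, LUM was at 0.352 CPM or less, and COL1A2 and DCN were at 0 in all but 1 shFOXK2 library. The part of these markers in the results below was not tested.

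As a group, the transporters were lower more often than higher in shFOXK2. Of the 34 tested, 13 were lower (38.2%, against 22.7% of all tested genes) and 6 were higher (17.6%, against 25.7%) at an adjusted p-value under 0.05 by edgeR's quasi-likelihood test. In either direction 55.9% of the members passed, against a background of 48.4%. The median log2 fold change of the tested members was −0.42, against 0.04 over all tested genes. An offset that removes a smooth trend of level on transcript GC content shifted members by a median of 0.28, against 0.13 for all tested genes. For A content these shifts were 0.32 and 0.17. The part of composition in the group difference was not tested. The groups did not overlap for 25 members (background 75.4%), with shFOXK2 below shCtrl for 16 (background 36.2%) and above it for 9 (background 39.2%). The remaining 25 members held at most 8 counts in any library and were not tested.

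The sum over all members hardly moved. The 59 genes together took 2621 ± 3.81 CPM in the controls and 2715 ± 204 CPM with FOXK2 targeted (SD over n = 2 libraries), so the groups differed by less than the shFOXK2 libraries did. SLC7A5 alone made up 19.6% ± 2.19 of that sum in shCtrl and 24.7% ± 1.84 in shFOXK2. In bulk RNA, fewer cells that carry a transcript and less transcript per cell cannot be told apart.

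**Figure D1:**
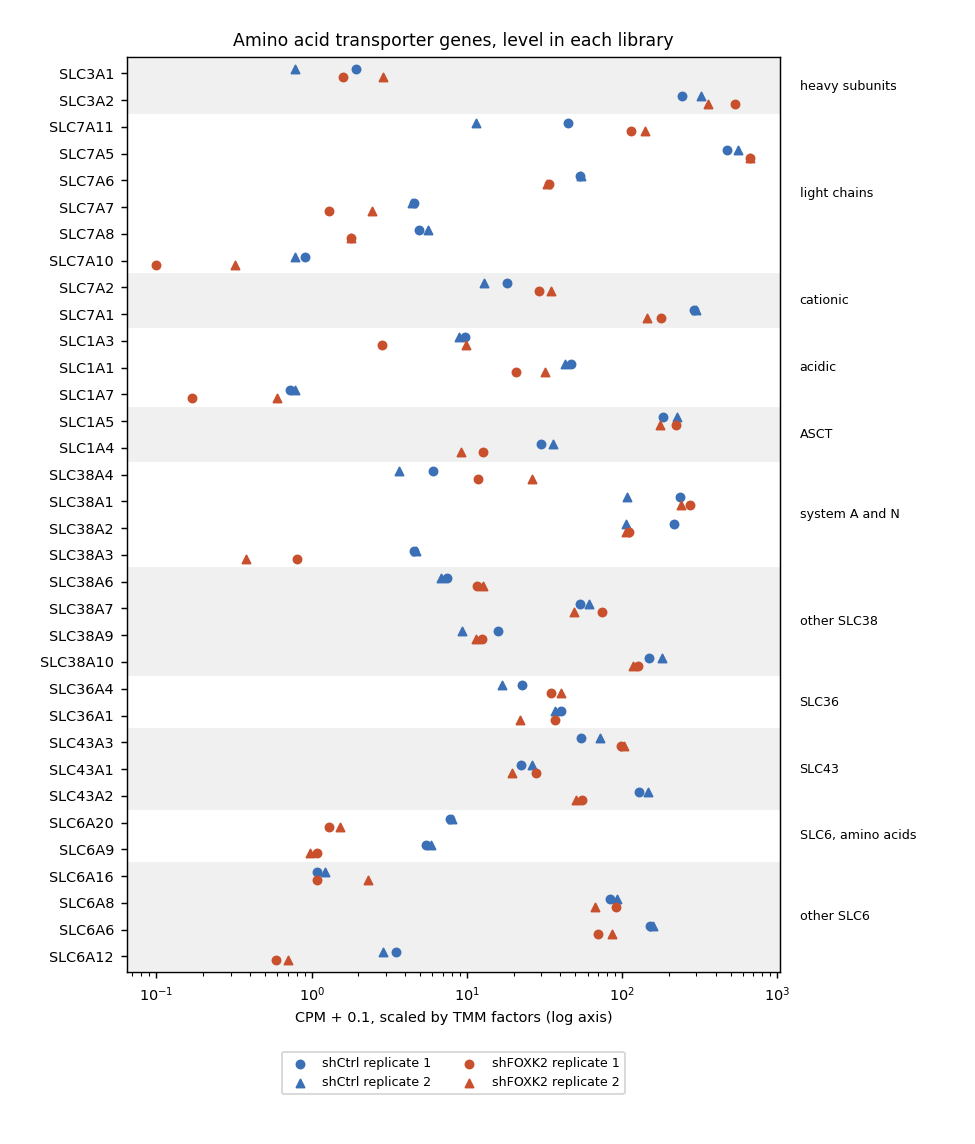
Level of each of the 34 tested transporter genes in each library, as CPM + 0.1 on a log axis, with blue for shCtrl, orange for shFOXK2, circles for replicate 1 and triangles for replicate 2. SLC7A11 shows the widest distance between the 2 shCtrl libraries, and SLC38A3, SLC6A9, SLC6A20 and SLC6A12 show both shFOXK2 libraries far to the left of both shCtrl libraries.

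The control libraries did not give the same level for every member, and this touches several results. For 6 members the 2 shCtrl libraries differed by 0.6 or more on the log2(CPM + 0.5) scale, each time with shCtrl replicate 1 higher: SLC7A11 by 1.95, SLC38A1 by 1.15, SLC38A2 by 1.05, SLC3A1 by 0.98, SLC38A9 by 0.75 and SLC38A4 by 0.67. The transcripts of these 6 genes were 27.1% to 31.1% A, all above the median of 26.0% over all tested genes with an annotated transcript. Of the other 28 members, 5 had an A content above that median. The same comparison over all tested genes is not given here.

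Of the heteromeric carriers, SLC3A2 and SLC7A5 were abundant, while SLC3A1, SLC7A7, SLC7A8 and SLC7A10 were among the lowest of the tested members. SLC3A2 (ENSG00000168003.19, chromosome 11 of hg38, 62856004 to 62888880, plus strand), the CD98 heavy subunit, was at 244 and 323 CPM in shCtrl and at 537 and 358 in shFOXK2. Both shFOXK2 libraries were the higher, but the second was close to a control. The log2 fold change was 0.66 (SE 0.26, edgeR adjusted p = 0.0527), just short of the threshold. It was 0.87 without shCtrl replicate 2 (adjusted p = 0.0228) and 0.88 without shFOXK2 replicate 2 (adjusted p = 0.0174), but 0.43 without shCtrl replicate 1 (adjusted p = 0.251) and 0.34 without shFOXK2 replicate 1 (adjusted p = 0.413), and the adjusted p-values over 10 alternatives ran from 9.95e-05 to 0.077. SLC3A1 (rBAT), the other heavy subunit, which belongs to the cystine carrier of kidney and gut, was low, at 1.84 and 0.685 CPM in shCtrl and 1.48 and 2.80 in shFOXK2. Its groups overlapped (log2 fold change 0.73, SE 0.50, edgeR adjusted p = 0.239), the value was 1.09 without shFOXK2 replicate 1 (adjusted p = 0.027), 1.60 without shCtrl replicate 1 (adjusted p = 0.0537), 0.23 without shCtrl replicate 2 (adjusted p = 0.774) and 0.13 without shFOXK2 replicate 2 (adjusted p = 0.858), and 98.6% of its transcript lies over exons of other genes, among them PREPL on the opposite strand.

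SLC7A11 (chromosome 4, 138164097 to 138242349, minus strand), the cystine and glutamate exchanger, had the largest rise of the members with all libraries in the fit, but SLC38A4 rose more with the GC offset (1.32 against 1.30), without shCtrl replicate 2 (1.67 against 1.50) and without shFOXK2 replicate 1 (2.44 against 2.31). Its counts were 1005 and 181 in the controls and 1623 and 2554 with FOXK2 targeted, or 45.0 and 11.3 against 114 and 140 CPM. The groups did not overlap, although the controls differed from each other 4-fold. The log2 fold change was 2.17 (SE 0.46, edgeR adjusted p = 0.00166), a rise of 4.5-fold. The size depended on which control was used, at 3.45 without shCtrl replicate 1 (adjusted p = 5.85e-08) and 1.50 without shCtrl replicate 2 (adjusted p = 0.000372). The transcript is A-rich (30.8%), and with an offset on A content, which removes a smooth trend of level on that property in each library, the value was 1.76 (adjusted p = 0.00485), and with a GC offset it was 1.30 (adjusted p = 0.0157). An antisense gene, SLC7A11-AS1, overlaps 8.97% of the SLC7A11 transcript and held 1 and 1 counts in the controls and 7 and 8 in shFOXK2.

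SLC7A5 (chromosome 16, 87830023 to 87869507, minus strand), the leucine importer LAT1, had the most counts of all members in every library. It was at 473 and 555 CPM in shCtrl and at 668 and 669 in shFOXK2, so that the groups did not overlap. The log2 fold change of 0.38 (SE 0.23, edgeR adjusted p = 0.19) did not pass, and it was 0.23 without shCtrl replicate 1 (adjusted p = 0.53). It passed with the GC offset (0.70, adjusted p = 0.00904) and with the A-content offset (0.63, adjusted p = 0.0151), which shift the median of all tested genes by 0.13 and 0.17. SLC7A5 has near-identical pseudogenes, one of which, SLC7A5P1, held 7 to 19 counts, so its count is uncertain where reads fit both places equally.

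**Figure D2:**
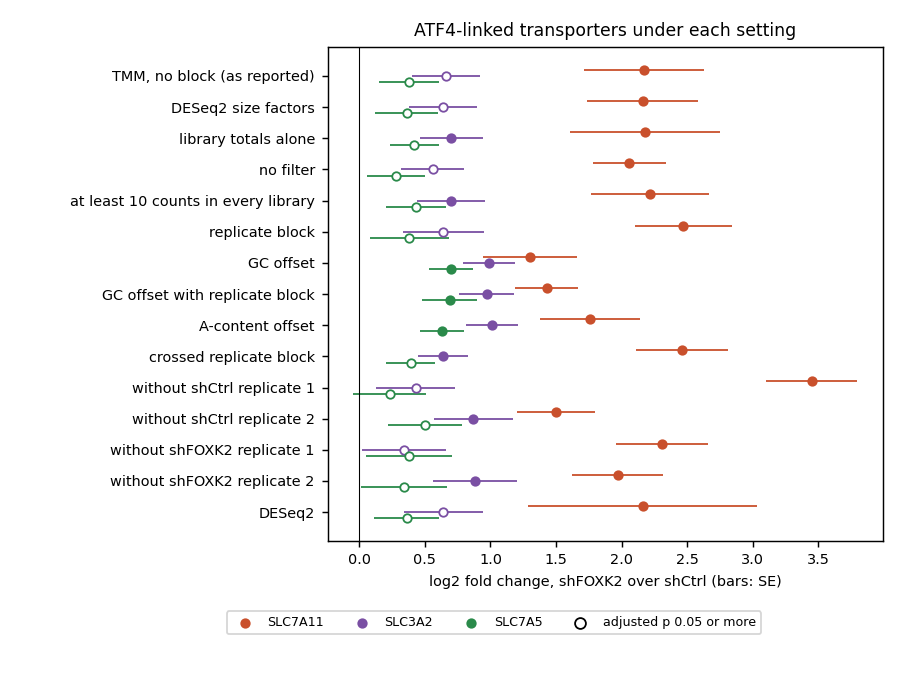
Log2 fold change (shFOXK2 over shCtrl, bars are SE) of SLC7A11, SLC3A2 and SLC7A5 as reported and under each of the 14 other settings, with filled points where the adjusted p-value was under 0.05. SLC7A11 passed in each setting, from 1.30 to 3.45, while SLC3A2 and SLC7A5 stayed above 0 and passed only in some settings.

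The other tested light chains were lower in shFOXK2. SLC7A8 (LAT2), which carries neutral amino acids, was at 4.80 and 5.48 CPM in shCtrl and at 1.69 and 1.70 in shFOXK2, a log2 fold change of −1.59 (SE 0.36, edgeR adjusted p = 0.0028). SLC7A7, a y+L carrier that exports cationic amino acids, fell from 4.48 and 4.30 to 1.20 and 2.36 CPM (−1.28, SE 0.40, edgeR adjusted p = 0.0174). SLC7A6, the other y+L carrier, fell from 53.2 and 53.9 to 33.5 and 32.6 CPM (−0.70, SE 0.25, edgeR adjusted p = 0.0322). The counts of SLC7A10 (Asc-1), a carrier of small neutral amino acids, were 18 and 11 in shCtrl and 0 and 4 in shFOXK2 (−2.56, SE 0.77, edgeR adjusted p = 0.014). In all of these genes both shFOXK2 libraries lay below both controls.

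Several of these calls were close to the threshold. SLC7A7 did not pass without shFOXK2 replicate 1 (−0.89, edgeR adjusted p = 0.0698), nor without shCtrl replicate 1 (−1.29, adjusted p = 0.05 after rounding), and with the A-content offset its value was −0.94 (adjusted p = 0.0806). SLC7A6 lost its call without shCtrl replicate 2 (−0.69, adjusted p = 0.0545), without shFOXK2 replicate 1 (−0.71, adjusted p = 0.115), without shFOXK2 replicate 2 (−0.72, adjusted p = 0.124) with the A-content offset (−0.35, adjusted p = 0.118) and with the replicate block (−0.70, adjusted p = 0.0813). Its transcript shares 59.9% of its length with exons of genes on the other strand, among them SLC7A6OS, which was at 10.3 and 10.5 CPM in shCtrl and 11.1 and 7.03 in shFOXK2. SLC7A10 was at −1.75 without shFOXK2 replicate 1 (adjusted p = 0.0738) and at −6.75 without shFOXK2 replicate 2, where a single shFOXK2 library at 0 counts remained, and DESeq2 did not call it (−2.70, adjusted p = 0.101), so the size of its fall is uncertain.

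The 2 expressed cationic amino acid carriers, which import arginine, lysine and ornithine, went in opposite directions. SLC7A1 (CAT1, chromosome 13, 29509414 to 29595688, minus strand) was at 292 and 300 CPM in shCtrl and at 177 and 145 in shFOXK2, a log2 fold change of −0.88 (SE 0.23, edgeR adjusted p = 0.00667). Without shFOXK2 replicate 2 it was −0.78 (adjusted p = 0.0502), and with the GC offset −0.55 (adjusted p = 0.0241). SLC7A2 (CAT2), an inducible arginine carrier on chromosome 8, was at 17.9 and 12.8 CPM in shCtrl and at 29.2 and 34.8 in shFOXK2. Its log2 fold change was 1.05 (SE 0.28, edgeR adjusted p = 0.00765), and it passed under each alternative. Per transcript length SLC7A1 remained the more abundant of the pair, at 40.3 ± 0.709 CPM per kb against 2.02 ± 0.473 in shCtrl and 21.9 ± 3.09 against 4.20 ± 0.513 in shFOXK2 (SD, n = 2 each).

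Among the SLC1 family, which couples transport to sodium, the neutral exchangers differed from each other. SLC1A4 (ASCT1), a carrier of serine and alanine, fell from 30.1 and 35.7 to 12.5 and 9.06 CPM (log2 fold change −1.61, SE 0.29, edgeR adjusted p = 0.000581). SLC1A5 (ASCT2), the main glutamine exchanger of many tumour cells, was at 184 and 226 CPM in shCtrl and at 221 and 176 in shFOXK2. Its groups overlapped almost fully (−0.04, SE 0.24, edgeR adjusted p = 0.901), and its sign turned with an offset on composition and without shCtrl replicate 2 (0.11) or shFOXK2 replicate 2 (0.07).

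The acidic amino acid carriers take up glutamate and aspartate. SLC1A1 (EAAT3) was at 46.4 and 42.9 CPM in shCtrl and at 20.5 and 31.8 in shFOXK2, a log2 fold change of −0.77 (SE 0.28, edgeR adjusted p = 0.0357). This call was lost without shFOXK2 replicate 1 (−0.49, adjusted p = 0.298) and without shCtrl replicate 1 (−0.75, adjusted p = 0.0513), and the value was −1.16 without shFOXK2 replicate 2. SLC1A3 (EAAT1) was split between the shFOXK2 libraries, at 2.74 and 9.78 CPM against 9.59 and 8.78 in shCtrl. Its log2 fold change was −0.54 (SE 0.45, edgeR adjusted p = 0.343), and it was −1.78 without shFOXK2 replicate 2 (adjusted p = 0.000281) and 0.09 without shFOXK2 replicate 1. SLC1A7 (EAAT5), known from the retina, held 14 and 11 counts in the controls and 1 and 9 in shFOXK2 (−1.09, SE 0.66, edgeR adjusted p = 0.187), with −3.13 without shFOXK2 replicate 2 (adjusted p = 0.0261) and −0.40 without shFOXK2 replicate 1 (adjusted p = 0.676).

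The system A carriers SLC38A1, SLC38A2 and SLC38A4, which import small neutral amino acids with sodium, lie next to each other on chromosome 12, with gaps of 88.2 and 392 kb between them. SLC38A4 (SNAT4; 46764761 to 46832408, minus strand) was at 5.96 and 3.55 CPM in shCtrl and at 11.7 and 26.1 in shFOXK2, a log2 fold change of 1.98 (SE 0.40, edgeR adjusted p = 0.00136). The rise was 1.24 without shFOXK2 replicate 2 (adjusted p = 0.00363), the library where it was highest, and 1.32 with the GC offset (adjusted p = 0.0145). SLC38A1 (SNAT1) was at 237 and 107 CPM in shCtrl and at 272 and 240 in shFOXK2. The second control stood apart from the other libraries, and the log2 fold change was 0.57 (SE 0.32, edgeR adjusted p = 0.15) with both controls 1.22 without shCtrl replicate 1 (adjusted p = 0.00173) and 0.11 without shCtrl replicate 2 (adjusted p = 0.778).

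SLC38A2 (SNAT2), a system A carrier known to rise when amino acids are short, was at 217 and 105 CPM in shCtrl and at 110 and 106 in shFOXK2. The first control stood apart, so that the log2 fold change of −0.58 (SE 0.30, edgeR adjusted p = 0.133) was 0.0013 without shCtrl replicate 1 and −1.01 without shCtrl replicate 2 (adjusted p = 0.00374). With the GC offset it was −1.30 (edgeR adjusted p = 0.000888), but with the A-content offset it was −0.56 and did not pass (edgeR adjusted p = 0.0823). SLC38A3 (SNAT3), a system N carrier of glutamine, asparagine and histidine, had the largest fall of the family with all libraries in the fit. It held 99 and 74 counts in the controls and 10 and 5 in shFOXK2, a log2 fold change of −3.24 (SE 0.48, edgeR adjusted p = 0.00014), and its fall passed with each library left out in turn.

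Of the SLC38 carriers outside systems A and N, 1 of 4 passed (25.0%, background 48.4% in either direction). SLC38A6, an orphan carrier, was at 7.35 and 6.73 CPM in shCtrl and at 11.5 and 12.6 in shFOXK2 (log2 fold change 0.77, SE 0.30, edgeR adjusted p = 0.0483). It did not pass with any library left out, at 0.79 without shCtrl replicate 1, 0.71 without shCtrl replicate 2, 0.84 without shFOXK2 replicate 1 and 0.66 without shFOXK2 replicate 2 (adjusted p = 0.0581 to 0.154), and it was −0.024 with the GC offset and not called with the replicate block (0.77, adjusted p = 0.0919). The A-content offset gave SLC38A6 a value of 0.85 (edgeR adjusted p = 0.0156), so the GC and A-content offsets differed for this gene. SLC38A10 was at 149 and 180 CPM in shCtrl and at 127 and 117 in shFOXK2 (−0.43, SE 0.23, edgeR adjusted p = 0.144). SLC38A7, which exports glutamine and asparagine from the lysosome, was at 53.2 and 61.5 CPM in shCtrl and at 74.2 and 49.1 in shFOXK2 (0.10, SE 0.27, edgeR adjusted p = 0.776). SLC38A9, the lysosomal arginine sensor that signals to mTORC1, was at 15.8 and 9.22 CPM in shCtrl and at 12.4 and 11.4 in shFOXK2 (−0.08, SE 0.32, edgeR adjusted p = 0.862). The groups of SLC38A7 and SLC38A9 overlapped, and both changed sign when single libraries were left out, SLC38A7 without shCtrl replicate 1 (−0.04) or shFOXK2 replicate 1 (−0.22) and SLC38A9 without shCtrl replicate 1 (0.32).

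Of the 4 members of the SLC36 family, 2 were tested. SLC36A4 (PAT4) was at 22.5 and 16.8 CPM in shCtrl and at 34.8 and 40.0 in shFOXK2, a log2 fold change of 0.93 (SE 0.27, edgeR adjusted p = 0.0122). Its transcript has the highest A content of the tested members, 32.3%, and the value was −0.018 after the A offset and −0.10 after the GC offset. The call was also lost without shCtrl replicate 2 (0.74, adjusted p = 0.0598) and without shFOXK2 replicate 2 (0.79, adjusted p = 0.0739). SLC36A1 (PAT1), found on lysosomes and the plasma membrane, was at 40.4 and 37.1 CPM in shCtrl and at 37.1 and 21.9 in shFOXK2 (−0.40, SE 0.29, edgeR adjusted p = 0.279), where the first shFOXK2 library was level with the second control. It was −0.82 without shFOXK2 replicate 1 (adjusted p = 0.0709) and −0.10 without shFOXK2 replicate 2 (adjusted p = 0.853).

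The 3 SLC43 members gave a fall, a rise and no call. SLC43A2 (LAT4, chromosome 17, 1569268 to 1628886, minus strand), which carries large neutral amino acids without sodium, fell from 129 and 147 to 55.3 and 50.3 CPM (log2 fold change −1.38, SE 0.24, edgeR adjusted p = 0.000451). SLC43A1 (LAT3), of the same transport type, was at 22.1 and 26.3 CPM in shCtrl and at 27.8 and 19.3 in shFOXK2 (−0.04, SE 0.28, edgeR adjusted p = 0.917), with a sign that turned without shCtrl replicate 2 (0.09) and without shFOXK2 replicate 2 (0.16). SLC43A3, now known as a purine nucleobase carrier, rose from 54.3 and 71.9 to 97.6 and 102 CPM (0.66, SE 0.25, edgeR adjusted p = 0.0415). That call was lost without shCtrl replicate 1 (0.43, adjusted p = 0.23), shFOXK2 replicate 1 (0.69, adjusted p = 0.0908) or shFOXK2 replicate 2 (0.59, adjusted p = 0.164) and with the replicate block (0.67, adjusted p = 0.0855), and the value was 1.01 with the GC offset (adjusted p = 0.00196). A further annotated gene on the same strand covers 51.5% of the SLC43A3 transcript.

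Of the 19 SLC6 members, carriers of amino acids, amines and osmolytes that depend on sodium and chloride, 6 were tested and 4 were lower. Over all tested genes 22.7% were lower, and 6 genes are few for a share. SLC6A9 (GlyT1), a glycine carrier, held 120 and 92 counts in the controls and 14 and 16 in shFOXK2, a log2 fold change of −2.57 (SE 0.39, edgeR adjusted p = 0.00017). SLC6A20, which carries proline, held 171 and 128 counts in the controls and 17 and 26 in shFOXK2 (−2.56, SE 0.37, edgeR adjusted p = 0.000114). SLC6A12 (BGT1), a betaine and GABA carrier, held 76 and 45 against 7 and 11 counts (−2.48, SE 0.44, edgeR adjusted p = 0.00052). The 3 genes fell by similar amounts from low levels, and both shFOXK2 libraries of each were far below both controls.

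SLC6A6 (TauT), the taurine carrier and the most counted SLC6 gene in shCtrl, fell from 151 and 157 to 69.7 and 86.3 CPM (−0.98, SE 0.24, edgeR adjusted p = 0.00419), and it was −0.63 with the A-content offset (adjusted p = 0.0205). SLC6A8, the creatine carrier, was at 82.8 and 92.2 CPM in shCtrl and at 91.2 and 66.6 in shFOXK2. Its groups overlapped (−0.15, SE 0.25, edgeR adjusted p = 0.652), and it was 0.02 without shFOXK2 replicate 2. The orphan SLC6A16 held 22 and 18 counts in the controls and 14 and 40 in shFOXK2 (0.62, SE 0.47, edgeR adjusted p = 0.29), at 1.06 without shFOXK2 replicate 1 (adjusted p = 0.0483) and −0.13 without shFOXK2 replicate 2.

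**Figure D3:**
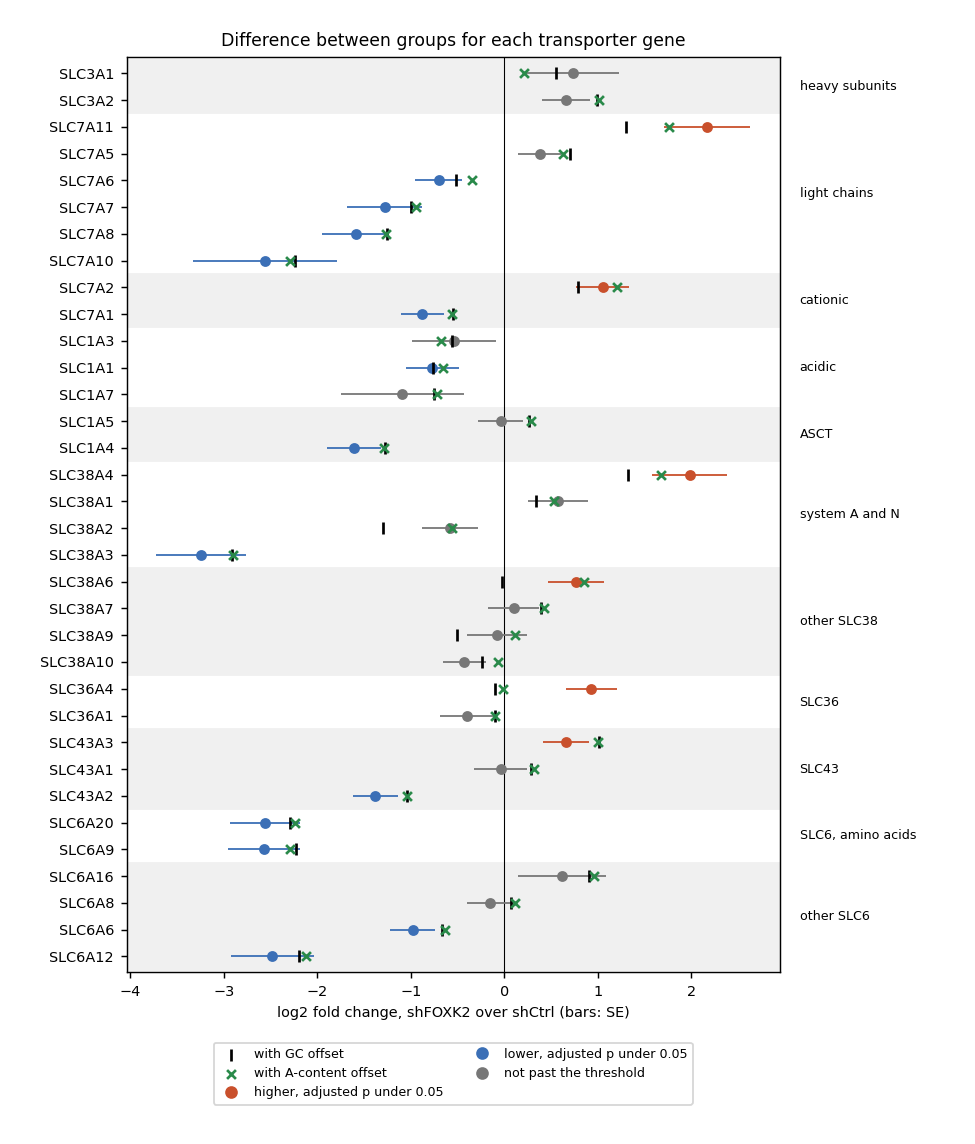
Log2 fold change (shFOXK2 over shCtrl) of the 34 tested transporter genes with SE bars, grouped by role, and the value under an offset on GC content (black tick) or A content (green cross). The called falls stay below 0 with either offset, whereas SLC36A4 moves from 0.93 to −0.10 and −0.018. SLC38A6 moves from 0.77 to −0.024 with the GC offset but to 0.85 with the A-content offset.

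Levels were compared between genes per kb of the canonical transcript. In shCtrl the highest were SLC3A2 at 150 ± 29.4 and SLC7A5 at 113 ± 12.8 CPM per kb, followed by SLC1A5 at 71.0 ± 10.2, SLC7A1 at 40.3 ± 0.709 and SLC38A10 at 36.6 ± 4.75 (SD, n = 2 each). In shFOXK2 the first 3 kept this order, at 237 ± 67.5, 147 ± 0.153 and 69.0 ± 11.0 CPM per kb, and SLC43A3 was next at 38.1 ± 1.11. The step from SLC7A5 to SLC1A5 was larger than the spread in both groups. That from SLC3A2 to SLC7A5 was 1.25-fold and 1.41-fold in the shCtrl libraries and 1.94-fold and 1.29-fold in the shFOXK2 libraries. SLC7A11 stood at 2.92 ± 2.48 CPM per kb in shCtrl and at 13.2 ± 1.92 in shFOXK2, so even after its rise it remained far below SLC7A5.

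The called members differed in transcript composition. Of the 6 that rose, 5 had an A content above the median of all tested genes (26.0%), with SLC43A3 at 22.6% as the exception. Of the 13 that fell, 1 (SLC1A1, at 27.7%) had an A content above it, as had 5 of the 15 without a call. The median A content was 29.0% for the members that rose and 21.4% for those that fell. The same split over all called genes is not given here, so it cannot be called particular to the transporters. Under an offset on A content, 5 of the 6 rises and 11 of the 13 falls still passed, and 4 and 12 did under one on GC. SLC3A2 and SLC7A5 passed as higher under both offsets. How far composition enters the individual values was not tested beyond these offsets.

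**Figure D4:**
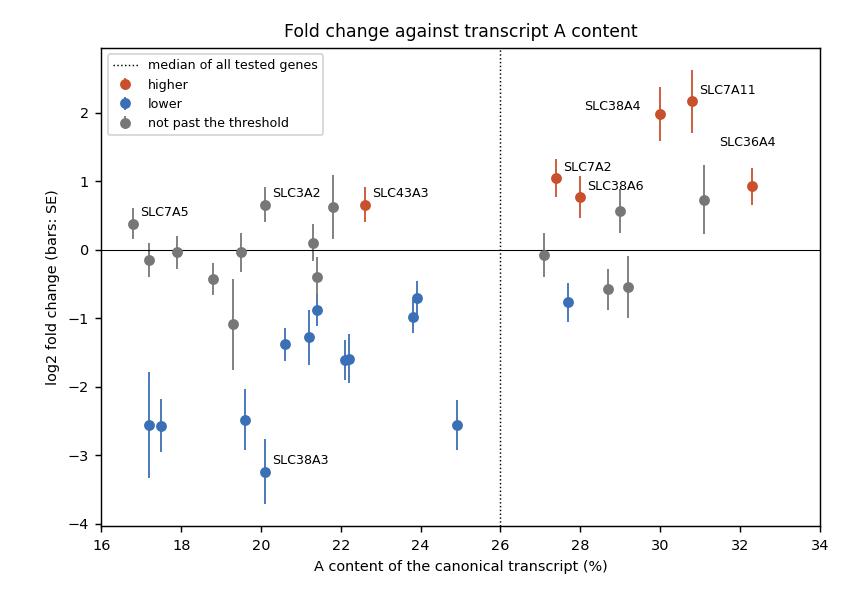
Log2 fold change of the 34 tested transporter genes (vertical, bars are SE) against the A content of the canonical transcript (horizontal, percent), with orange for higher, blue for lower and grey for genes without a call. Of the 6 rises, 5 lie to the right of the dotted line, the median of 26.0% over all tested genes, and 12 of the 13 falls lie to its left. With the GC offset the rises of SLC36A4 and SLC38A6 turned to −0.10 and −0.024. With the A-content offset SLC36A4 was at −0.018 but SLC38A6 at 0.85.

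In all, 9 members were called in the same direction under every alternative and with each library left out in turn, 14 other fits in all. Those that rose were SLC7A11, SLC38A4 and SLC7A2, and those that fell were SLC1A4, SLC43A2, SLC6A6, SLC6A9, SLC6A20 and SLC7A8. SLC38A3 and SLC6A12 held in every fit that included them, but each has a library under 10 counts and was not tested where 10 counts were required throughout.

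The genes around these carriers were described with 9 lists on sensing, synthesis and use of amino acids, in which 136 genes were tested. Of these, 41 were lower (30.1%, background 22.7%) and 15 higher (11.0%, background 25.7%). The list of amino acid stress sensing and the ATF4 response had 10 lower (55.6%) and 2 higher (11.1%) of 18 tested genes, with a median log2 fold change of −0.96. ATF4 itself was at 164 ± 23.6 CPM in the controls against 141 ± 24.9 with FOXK2 targeted (SD over n = 2 libraries), and its log2 fold change was −0.22 (SE 0.24, edgeR adjusted p = 0.476). EIF2AK1, a kinase upstream of ATF4 that senses heme shortage, was lower by −0.98 (edgeR adjusted p = 0.00291), and STC2, a secreted glycoprotein induced by ATF4, by −1.69 (edgeR adjusted p = 0.000102). The 2 that rose were the amino acid sensor kinase EIF2AK4 (0.80, edgeR adjusted p = 0.0121) and PPP1R15A (1.31, edgeR adjusted p = 0.0161, at 161 ± 122 CPM in shFOXK2), the phosphatase subunit GADD34, which was named for being the other rise. SLC7A11 rose and SLC3A2 and SLC7A5 gave positive values that did not pass, while most called genes of the ATF4 response list were lower in the same libraries.

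Among genes of amino acid synthesis, 7 of 19 were lower (36.8%, background 22.7%) and 12 were not called. The 7 included GLUL, which makes glutamine (−1.16, edgeR adjusted p = 0.0014), ALDH18A1 of proline synthesis (−1.02, edgeR adjusted p = 0.00389) and GOT1, an aspartate aminotransferase (−0.74, edgeR adjusted p = 0.0243). In the glutathione and cystine list 3 of 15 were lower (background 22.7%) and 1 was higher (6.67%, background 25.7%). TXNRD1, a thioredoxin reductase, fell from 1040 ± 55.5 to 455 ± 52.6 CPM (−1.19, edgeR adjusted p = 0.00113). GGT1, which cleaves glutathione outside the cell, was at −2.45 (edgeR adjusted p = 1.68e-05) and GSS, glutathione synthetase, at −0.78 (edgeR adjusted p = 0.015). The rise was GCLM, the modifier subunit of glutamate-cysteine ligase (1.15, edgeR adjusted p = 0.00397), named for being the only one in that list.

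In the mTORC1 amino acid sensing list 5 of 26 genes were lower (19.2%, background 22.7%) and 2 higher (7.69%, background 25.7%), so no share exceeded that of all genes. The kinase MTOR (−0.75, edgeR adjusted p = 0.0191) and the GTPase RRAGA (−0.96, edgeR adjusted p = 0.00665) fell, and FNIP1, a partner of folliculin, rose (1.07, edgeR adjusted p = 0.0345). Of 9 genes of glutamine use, CTPS1 (0.63, edgeR adjusted p = 0.0448) and PPAT (1.12, edgeR adjusted p = 0.0105), which use glutamine in nucleotide synthesis, were higher, and OAT, ornithine aminotransferase, was lower (−1.15, edgeR adjusted p = 0.00171). These shares, 22.2% higher and 11.1% lower, were both under the backgrounds of 25.7% and 22.7%. Of 6 tested genes of branched-chain amino acid breakdown, BCAT2 (−0.94, edgeR adjusted p = 0.00811) and BCKDHA (−2.39, edgeR adjusted p = 0.000713) were lower and DBT higher (1.25, edgeR adjusted p = 0.0145). From these few genes the shares were 33.3% lower (background 22.7%) and 16.7% higher (background 25.7%).

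Of 15 tested genes in the list of other carriers outside the 7 families, 6 were lower (40.0%, background 22.7%) and 9 were not called. The list is of amino acid carriers except for SLC44A1, a choline carrier, which was not called. The 6 included SLC25A44, a mitochondrial carrier of branched-chain amino acids (−0.67, edgeR adjusted p = 0.0418), SLC15A4, a lysosomal histidine and peptide carrier (−1.44, edgeR adjusted p = 0.000647), and PQLC2, a lysosomal exporter of cationic amino acids (−0.70, edgeR adjusted p = 0.0417). Among 9 partners and regulators of transporters, SGK1, a kinase that raises the surface level of several carriers, fell (−1.89, edgeR adjusted p = 6.92e-05), as did the ubiquitin ligase RNF5 (−1.31, edgeR adjusted p = 0.00155). The related kinase SGK3 rose from 2.06 ± 0.63 to 14.6 ± 3.19 CPM (2.80, edgeR adjusted p = 5.68e-05). In this list of partners and regulators 22.2% were lower (background 22.7%) and 22.2% higher (background 25.7%). The cytosolic aminoacyl-tRNA synthetases, which load amino acids onto tRNA, had 5 lower and 5 higher of 19 (26.3% each, against backgrounds of 22.7% and 25.7%), with AARS (−1.12, edgeR adjusted p = 0.00135) and QARS (−0.84, edgeR adjusted p = 0.0103) lower and DARS higher (1.39, edgeR adjusted p = 0.000673).

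**Figure D5:**
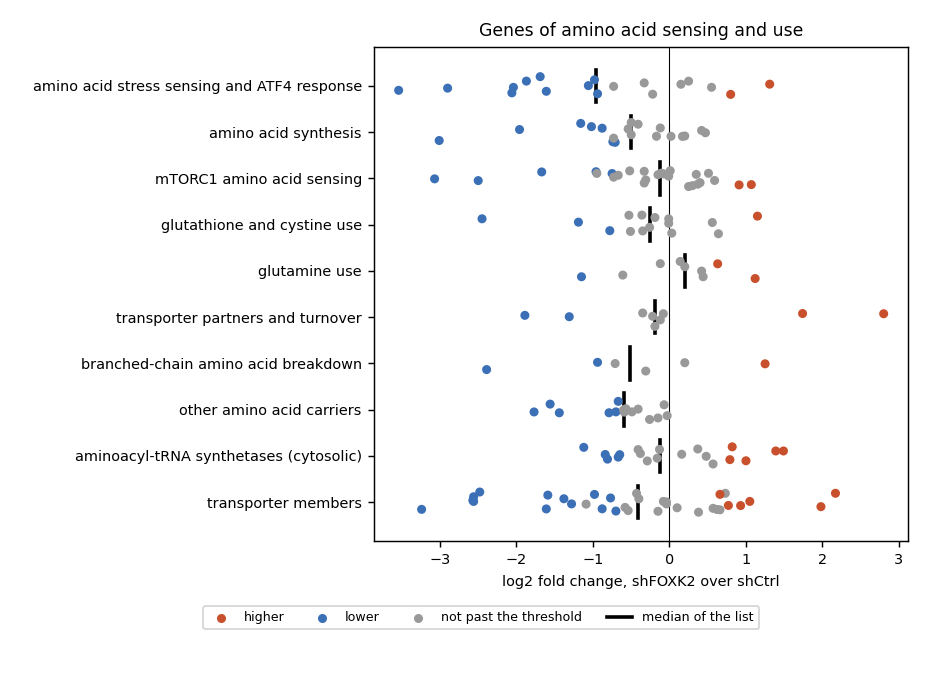
Log2 fold change (shFOXK2 over shCtrl) of each tested gene in the 9 lists and in the transporter set, with orange for higher, blue for lower, grey for genes without a call and a black bar at the median of each list. The bar lies at −0.96 for the ATF4 response list, at −0.42 for the transporters and above 0 only for glutamine use, at 0.20.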

How the data were processed

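Poly(A) RNA was sequenced as single-end reads of 50 bases. Per the labels, the authors aligned reads to hg38 with STAR 2.5.2 and deposited raw counts per gene symbol from HTSeq, without normalization. The strand setting and the annotation used for counting are not given in the sources used here, so sense and antisense reads of overlapping genes cannot be told apart. Titles gave the group and number of each library. After filterByExpr and TMM scaling, groups were compared in edgeR 4.0.16 (R 4.3.3; quasi-likelihood, either direction), and p-values of the 16417 tested genes were adjusted together by the Benjamini-Hochberg method, with calls under 0.05. Every tested member was named, with the 3 called genes of highest mean log2 CPM from each related list, ATF4 and FOXK2. The members and lists were chosen with earlier results of these data known. Transcript length, composition and positions came from GENCODE v44, in which 65.6% of symbols were matched, with composition for 88.2% of tested genes and for all 34 tested members. Alternatives were DESeq2 1.42.0, its size factors, library totals alone, no filter, at least 10 counts in every library, a replicate block, GC and A-content offsets (lowess, span 0.2), both GC offset and block, and leaving out each library. A crossed block was chosen after seeing the data. The steps were tested on simulated data with known changes, where most 2-fold changes were missed at 2 against 2 libraries, so a gene that did not pass may still have changed by that much. Totals were 14284005 to 21950873 counts per library.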

Additional observations from a re-analysis of the deposited data

How the results depend on the processing

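Of the members' values, 293 kept direction and side of the threshold in fits that left out no library, 13 lost and 13 gained a call and 17 turned sign. With a library left out these numbers were 99, 18, 8 and 11. The cause was not tested. SLC7A5 gained a call at 0.70 (GC offset), 0.69 (GC offset with replicate block) and 0.63 (A-content offset). SLC3A2 gained one at 0.70 (library totals alone), 0.70 (at least 10 counts), 0.99 (GC offset), 0.97 (GC offset with replicate block), 1.01 (A-content offset) and 0.64 (crossed block). List genes called higher numbered 23 with GC offset and replicate block. Signs turned, in the order GC offset, GC offset with block and A-content offset, for SLC1A5 (0.26, 0.26, 0.28), SLC36A4 (−0.10, −0.10, −0.018), SLC43A1 (0.28, 0.27, 0.32) and SLC6A8 (0.072, 0.067, 0.11), for SLC38A6 with the first 2 (−0.024, −0.017), for SLC38A9 with A content (0.11), and with at least 10 counts for SLC1A5 (0.0036) and SLC43A1 (0.0027). With 1 library left out, SLC7A11 ran from 1.50 to 3.45, SLC7A5 from 0.23 to 0.50, SLC3A2 from 0.34 to 0.88, FOXK2 from −0.55 to −0.23, SLC1A3 from −1.78 to 0.089, SLC1A5 from −0.23 to 0.11, SLC38A2 from −1.01 to 0.0013, SLC38A7 from −0.22 to 0.33, SLC38A9 from −0.41 to 0.32, SLC43A1 from −0.33 to 0.16, SLC6A16 from −0.13 to 1.06 and SLC6A8 from −0.39 to 0.020, members called higher from 4 to 6 and lower from 9 to 13, and list genes higher from 9 (without shCtrl replicate 2) to 18 and lower from 31 to 47. The share of member calls that were higher was 31.6%, against 53.1% of the calls over all genes. It was 22.2% against 53.2% without a filter and 43.8% against 51.1% with at least 10 counts. In that last setting 30 members were tested, with 7 higher and 9 lower, beside 3069 higher and 2939 lower of 13625 genes. The titles give same-numbered libraries only a number in common and do not say whether they were prepared together. Their deviations correlated at −0.113, which with 2 libraries a group cannot decide this. The replicate block gave 7270 calls against 7940 over all genes, 4 members higher and 12 lower (SLC7A6, SLC38A6 and SLC43A3 lost their calls), with SLC7A11 at 2.47, SLC7A5 at 0.38, SLC3A2 at 0.64 and FOXK2 at −0.36. The crossed block gave 8350 calls, 7 members higher and 13 lower. With 2 libraries a group, a library left out leaves 1 in its group, which is assumed to vary like the others.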
